A study of Mus musculus with 9 samples.

Results

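Cisplatin and oxaliplatin are platinum anticancer drugs that form adducts on DNA and can leave patients with a painful sensory neuropathy. The comparison described here set dorsal root ganglia of cisplatin-treated mice directly against those of oxaliplatin-treated mice, over all genes. It used 6 of the 9 libraries of the study, 3 per drug, and the 3 vehicle libraries entered neither the scaling nor the estimate of spread. Of the 38926 genes in the files, 17208 had enough reads to be tested.

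All mice were male wild-type C57BL/6 animals of 8 to 10 weeks. Each drug was injected into the paw (intraplantar) to a cumulative dose of 40 µg, and ganglia L3, L4 and L5 on the treated side were taken. Every library was made from the pooled ganglia of 4 animals, so the spread between libraries is the spread between pools. The doses were equal by mass and not by amount of platinum, and the labels do not give the time from the last injection to dissection or the hour of dissection.

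The drugs share a platinum centre and differ in what is bound to it. Cisplatin carries ammine ligands and chloride leaving groups, whereas oxaliplatin carries a diaminocyclohexane ligand and an oxalate leaving group. Sensory neurons of the ganglia lie outside the blood-brain barrier, among satellite glia, Schwann cells, vessels and resident macrophages, and platinum is known to accumulate there. Both drugs cause a lasting neuropathy, and oxaliplatin is in addition known for an acute cold-triggered one. In bulk ganglia, fewer cells of a type and less RNA per cell cannot be told apart.

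Reads assigned to genes numbered 31971613 to 38168902 in the cisplatin libraries and 35520144 to 38808509 in the oxaliplatin libraries. At this depth a floor of 3 reads corresponds to 0.0769 to 0.0929 CPM, the read count of a gene scaled to the total of its library. The 22 tested pan-neuronal genes summed to between 19616 and 21646 CPM in every library, and the 22 satellite glia markers to between 6863 and 7397 CPM, as fits the labelled tissue. The main axis of variation (32.1% of the variance of log levels) did not separate the drugs, and its extremes were cisplatin library 1 and oxaliplatin library 1. Mitochondrial rRNA made up 4.22 ± 0.462% (SD, n = 3) of gene reads after cisplatin and 2.48 ± 0.345% (SD, n = 3) after oxaliplatin. Its exact permutation p was 0.1 (two-sided), the smallest that 3 libraries against 3 can give, and 0.267 after adjustment over 8 library properties. Reads outside genes made up 18.8 ± 0.25% of uniquely aligned reads after cisplatin and 17.4 ± 0.664% after oxaliplatin (SD, n = 3 each), with the same exact p of 0.1. In vehicle libraries 1 to 3 this share was 26.8, 47.7 and 26.2%, above every drug library. In vehicle library 2 the 10 most abundant genes held 32.9% of gene reads, beside 6.81 to 8.93% in the drug libraries. Vehicle levels and fits of all 9 libraries given below are to be read with these differences in mind.

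No gene passed an adjusted p of 0.05 in either direction (0 higher and 0 lower after cisplatin, 0% of 17208; edgeR quasi-likelihood test, Benjamini-Hochberg). The lowest adjusted p was 0.0748 and was shared by 3 genes, all higher after cisplatin: Ppbp, Prss34 and Fam150b. At an unadjusted p under 0.05, 908 genes (5.28%) were higher after cisplatin and 434 (2.52%) were lower, 1342 in all (7.8%). The groups did not overlap for 1365 genes (7.93%) that were higher in every cisplatin library and 1102 (6.4%) that were lower, 2467 in all (14.3%). Counts of list members given below, at that p or without overlap, are to be read beside these shares of all tested genes. Of the 47 genes with an unadjusted p under 0.001, 38 were higher after cisplatin.

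The number of calls depended on the tool. DESeq2 called 24 genes higher and 7 lower after cisplatin, edgeR without a filter on low counts called 16 and 6, and limma-voom called 0. Of the 36 genes called by DESeq2 or without the filter, 17 were called by both. All 36 had groups without overlap, but they were picked for small p in the same libraries, so this is no separate evidence. The excess of higher genes also depended on scaling: 67.7% of the genes at an unadjusted p under 0.05 were higher after cisplatin, against 51.8% with library totals alone and 54.1% after removal of length and GC trends.

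Most differences between the drugs were measured to be small. For 13946 genes (81%) the whole 95% interval of the fold change lay within 1.5-fold in either direction, and for 16052 (93.3%) within 2-fold. The share within 1.5-fold was 29.9% in the 4302 least abundant genes (0.204 to 3.23 CPM) and 95.5% or more in each next set of 4302. For most of the least abundant genes the interval reached past 1.5-fold.

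**Figure D1:**
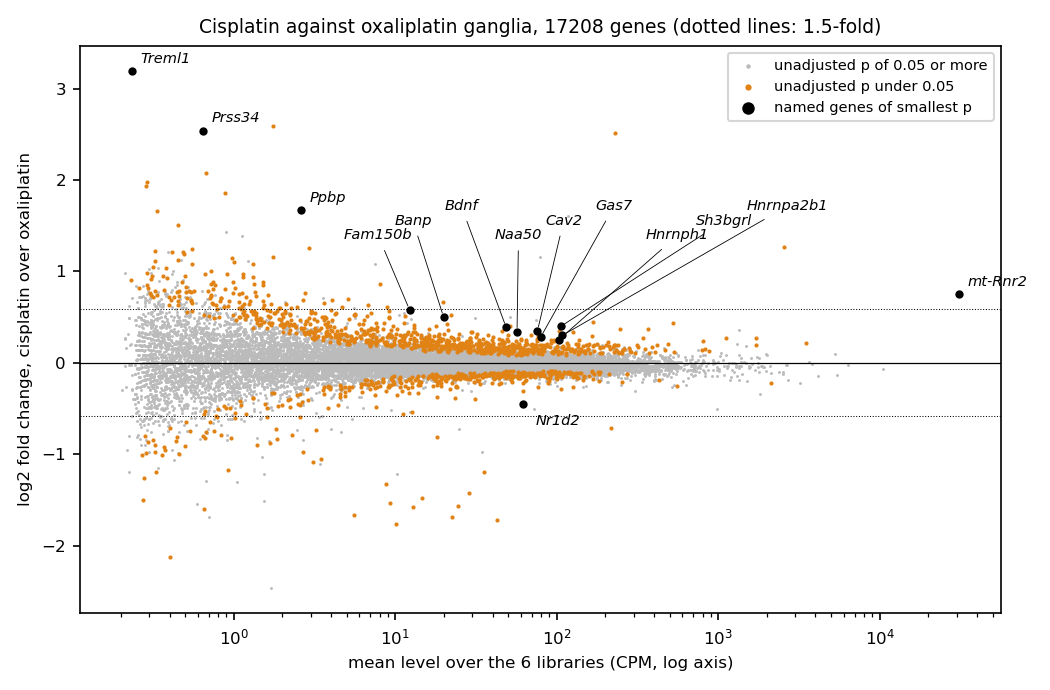
Each point is 1 of 17208 tested genes, by its mean level over the 6 libraries (CPM, log axis) and its log2 fold change of cisplatin over oxaliplatin. Orange points have an unadjusted p under 0.05, and the genes of smallest p that are described here are black and named. All of the named genes except Nr1d2 lie above 0, and the dotted lines mark 1.5-fold.

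Among the genes of smallest p were Ppbp, Prss34, Fam150b, Naa50, mt-Rnr2, Bdnf, Sh3bgrl, Hnrnpa2b1, Nr1d2, Cav2, Hnrnph1, Banp, Treml1 and Gas7. Of these, Nr1d2 was lower after cisplatin and the others were higher. In each of them the groups did not overlap, and the adjusted p ran from 0.0748 to 0.273.

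**Figure D2:**
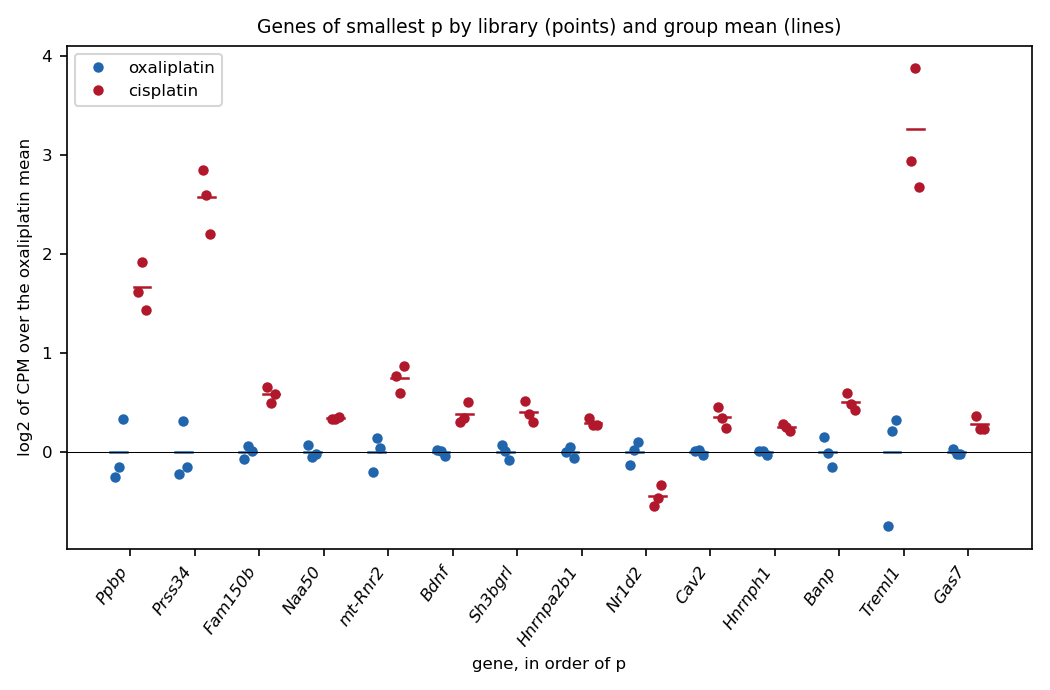
Levels of these genes of small p in each library, as log2 of CPM over the oxaliplatin mean, with cisplatin in red, oxaliplatin in blue and lines at the group means. The widest separations are Treml1, Prss34 and Ppbp, and Nr1d2 is the gene with cisplatin below oxaliplatin.

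Ppbp (chr5:90768518-90770063, GRCm38) encodes a chemokine stored in platelet granules. Its level was 3.84, 4.73 and 3.38 CPM in cisplatin libraries 1 to 3 and 1.06, 1.13 and 1.58 CPM in oxaliplatin libraries 1 to 3. The lowest cisplatin library was thus above the highest oxaliplatin library, and the log2 fold change was 1.67 (SE 0.19, adjusted p = 0.0748 by edgeR). Vehicle libraries, scaled together with the others, spanned 0.782 to 3.89 CPM and overlapped both drugs. The gene was called with robust empirical Bayes (adjusted p = 0.0444) and not when the vehicle libraries joined the fit (adjusted p = 0.5).

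Platelet and megakaryocyte genes were collected as a list after Ppbp and Treml1 had been seen, so the list is no separate evidence. Of 22 listed genes 19 were tested, 10 were higher after cisplatin at an unadjusted p under 0.05 and 0 were lower, with a median log2 fold change of 0.42 beside -0.004 over all tested genes. The log2 fold change was negative in 3 of the 19. The summed level of the list overlapped between the drugs, at 252 to 298 CPM after cisplatin and 237 to 273 CPM after oxaliplatin. Treml1, a receptor of platelet granules, gave 11, 25 and 10 reads after cisplatin and 1, 2 and 2 reads after oxaliplatin. The ratio of the summed reads was 9.73 (95% exact interval 3.88 to 31.4, counting error only), and the adjusted p was 0.273. Of the 10 members, 4 (Treml1, Gp1ba, Clec1b and Gp9) were under the level of the count filter in at least 1 oxaliplatin library and would not have passed on the oxaliplatin libraries alone, so the count and median are a description. Treml1 could not be fitted without cisplatin library 2 or with all 9 libraries. Gp1ba, a subunit of the platelet receptor for von Willebrand factor, gave 18, 13 and 18 reads against 7, 4 and 2, a ratio of 3.99 (2.13 to 8.01).

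More abundant members of the list differed less. Pf4, another granule chemokine, stood at 6.66, 5.90 and 5.54 CPM after cisplatin and 3.98, 4.39 and 4.61 CPM after oxaliplatin, a log2 fold change of 0.48 (SE 0.11). Tubb1, the tubulin of platelets, had a log2 fold change of 1.1 (SE 0.25), and Itga2b, the platelet integrin chain, 0.42 (SE 0.13). All 3 had groups without overlap and adjusted p of 0.364, 0.397 and 0.526. The vehicle libraries held Pf4 at 2.08, 4.14 and 2.49 CPM and Tubb1 at 0.335, 1.61 and 1.16 CPM. Leaving out any 1 library left between 9 and 12 members at an unadjusted p under 0.05, and the list median between 0.30 and 0.54.

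Prss34 (chr17:25298394-25300165) encodes a serine protease of basophils and mast cells. It gave 43, 43 and 30 reads after cisplatin and 6, 9 and 6 after oxaliplatin, a ratio of 5.84 (95% exact interval 3.65 to 9.8, counting error only). The groups were far apart for so low a gene, and the log2 fold change was 2.54 (SE 0.30, adjusted p = 0.0748 by edgeR). In vehicle libraries the level was 0.112, 0.37 and 0.161 CPM, beside 0.148, 0.215 and 0.156 CPM after oxaliplatin and 1.24, 1.04 and 0.799 CPM after cisplatin on the same scale. With all 9 libraries in the fit its adjusted p was 0.0495.

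Mcpt8, another basophil protease, gave 17, 19 and 12 reads after cisplatin and 5, 3 and 5 after oxaliplatin, a ratio of 3.91 (2.08 to 7.86), with a log2 fold change of 1.94 (SE 0.37, adjusted p = 0.306). Over the list of mast cell, basophil and eosinophil markers, of which 11 of 13 were tested, 2 were higher at an unadjusted p under 0.05 and 0 lower. Their median log2 fold change was 0.32, and neither of the members higher at that p would have passed the count filter on the oxaliplatin libraries alone, nor would Prss34. The number higher was 5 without cisplatin library 3 or oxaliplatin library 2 and 1 without any other library. The summed level of that list was 102 to 103 CPM after cisplatin and 88.9 to 101 CPM after oxaliplatin.

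Some markers of other blood lineages were also higher at an unadjusted p under 0.05. Of 20 neutrophil and myeloid precursor markers 19 were tested, 9 (47.4%) were higher after cisplatin at that p and 0 lower, with a median of 0.49. Their summed level was 354, 316 and 227 CPM in cisplatin libraries 1 to 3 and 129, 272 and 250 CPM in oxaliplatin libraries 1 to 3. Cisplatin library 3 therefore lay below oxaliplatin libraries 2 and 3. Without oxaliplatin library 1, 5 members were higher at that p and the median was 0.26, and without cisplatin library 3 there were 14 and the median was 0.66. Without cisplatin library 1 or library 2 there were 5 in each case.

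Ly6g, a surface marker of mature neutrophils, had the smallest p of the list, at 0.806, 0.675 and 0.568 CPM after cisplatin and 0.185, 0.385 and 0.305 CPM after oxaliplatin (log2 fold change 1.21, SE 0.31, adjusted p = 0.428). It too would not have passed the count filter on the oxaliplatin libraries alone. Mpo, myeloperoxidase, stood at 6.69, 6.05 and 6.08 CPM after cisplatin and 2.32, 4.82 and 4.41 CPM after oxaliplatin (log2 fold change 0.70, SE 0.21, adjusted p = 0.513). Elane, neutrophil elastase, stood at 1.21, 1.71 and 1.53 CPM against 0.449, 1.03 and 0.86 CPM (0.94, SE 0.28, adjusted p = 0.509). Those 3 genes did not overlap between the drugs. S100a8, abundant in mature neutrophils, overlapped between the drugs at 75.1, 64.1 and 41.1 CPM against 21.7, 55.3 and 50.5 CPM.

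Transcription factors of blood precursors, chosen after their values were seen, were also higher in every cisplatin library. Gata1, a factor of the erythroid and megakaryocyte lineages, had levels of 0.527, 0.546 and 0.455 CPM against 0.0791, 0.282 and 0.111 CPM (log2 fold change 1.66, SE 0.41, adjusted p = 0.42). Like Ly6g, Gata1 would not have passed the count filter on the oxaliplatin libraries alone. Myb, a factor of immature blood cells, had levels of 2.14, 1.66 and 1.56 CPM against 0.475, 0.974 and 1.08 CPM (1.08, SE 0.28, adjusted p = 0.428). Of 14 erythrocyte genes 12 were tested, 11 had a positive log2 fold change, and the median was 0.33. At an unadjusted p under 0.05, 2 (16.7%) were higher and 0 lower, beside 5.28% and 2.52% of all tested genes. Without cisplatin library 3 the number higher was 6. Car1, an erythroid carbonic anhydrase, stood at 0.806, 0.857 and 0.994 CPM against 0.369, 0.641 and 0.333 CPM, without overlap (0.97, SE 0.28, adjusted p = 0.493). The beta globin Hbb-bs, the 1 member with a negative value, overlapped, at 136, 120 and 60.6 CPM against 56.6, 136 and 134 CPM, and its log2 fold change was -0.05 (95% interval -0.81 to 0.72).

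Of 15 B and plasma cell markers 11 were tested and 2 (18.2%) were higher at an unadjusted p under 0.05. Of 25 resident macrophage markers 24 were tested and 2 (8.33%) were higher, beside 5.28% of all tested genes. Of 16 T and NK cell markers 8 were tested and 0 differed at that p. The medians of these lists were, in that order, 0.38, 0.16 and 0.04. The number of macrophage markers that were higher was 10 without cisplatin library 3, 4 without oxaliplatin library 3, and 1 without cisplatin library 2 or oxaliplatin library 1. For B and plasma cell markers it was 0 without cisplatin library 1, and neither of the members higher in the fit of all 6 libraries would have passed the count filter on the oxaliplatin libraries alone. How far blood cells in the dissected tissue or vessels contribute to these values was not tested.

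Of 25 cell cycle genes, all tested, 8 were higher after cisplatin and 1 was lower at an unadjusted p under 0.05, and none passed the adjusted threshold by edgeR. The log2 fold change was positive in 24, the median was 0.27, and the summed level was 137 to 154 CPM after cisplatin and 116 to 130 CPM after oxaliplatin. Mki67, a nuclear protein of cycling cells, stood at 27.9, 25.2 and 20.1 CPM after cisplatin and 13, 16.5 and 16.6 CPM after oxaliplatin. No cisplatin library was as low as the highest oxaliplatin library, and the log2 fold change was 0.67 (SE 0.13, adjusted p = 0.306 by edgeR and 0.000193 by DESeq2). Vehicle libraries had 12.4, 17.2 and 11.7 CPM.

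Bub1, a kinase of the mitotic checkpoint, showed a log2 fold change of 0.50 (SE 0.13) and Top2a, the topoisomerase of dividing cells, 0.37 (SE 0.12), with adjusted p of 0.428 and 0.543. On the scale of all 9 libraries, Bub1 was lowest in the vehicle libraries (1.09 ± 0.149 CPM, SD, n = 3). Over the fits that left out 1 library, 5 to 9 cell cycle genes were higher at an unadjusted p under 0.05, with 5 without oxaliplatin library 1 (median 0.20). The list median ran from 0.18 without cisplatin library 2 to 0.28 without oxaliplatin library 3.

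**Figure D3:**
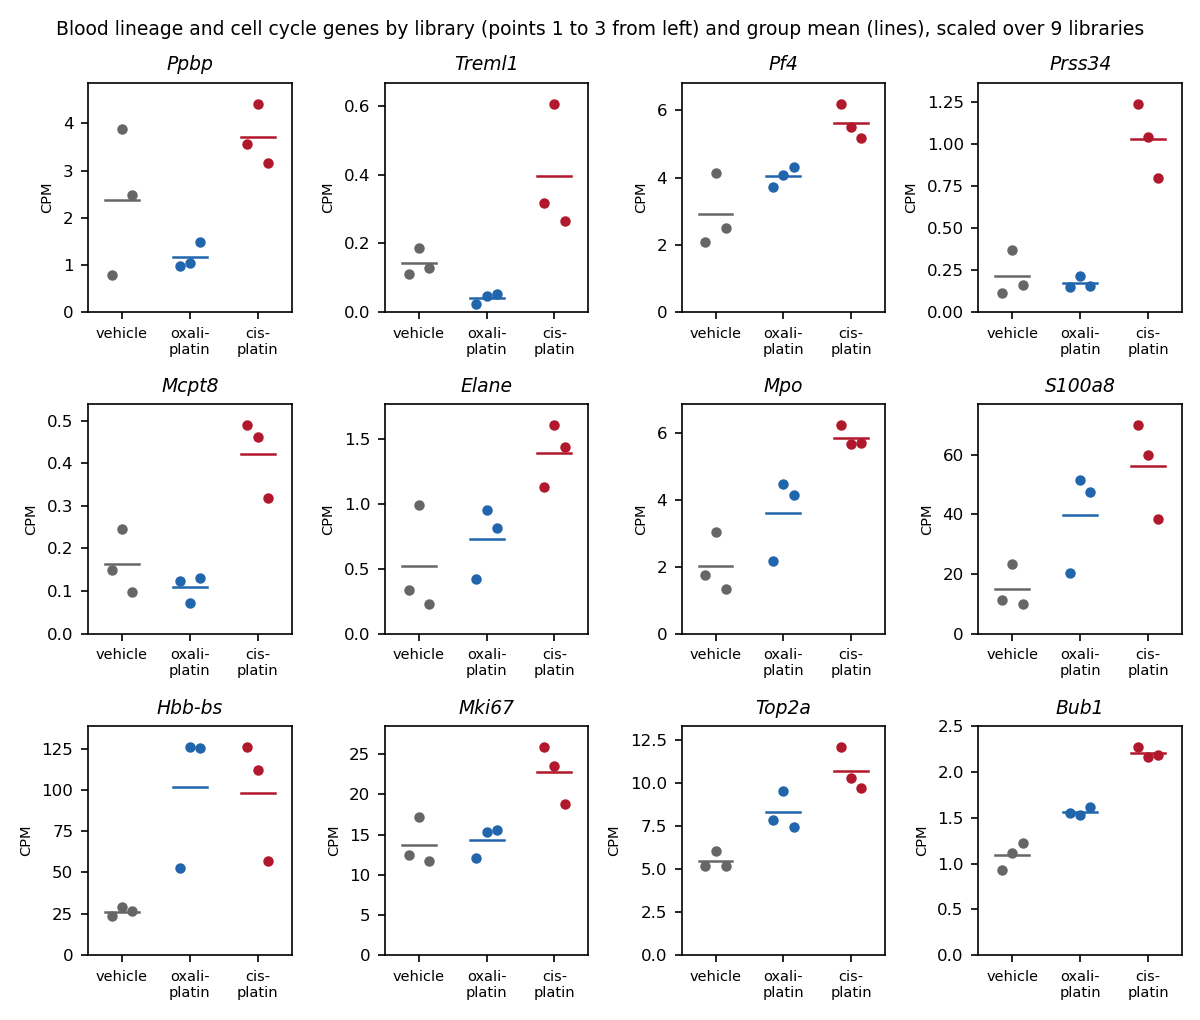
Levels (CPM, linear axes from 0) of platelet genes (Ppbp, Treml1, Pf4), basophil genes (Prss34, Mcpt8), myeloid genes (Elane, Mpo, S100a8), beta globin (Hbb-bs) and cell cycle genes (Mki67, Top2a, Bub1) in the 3 libraries of each group, scaled over 9 libraries, with lines at the group means. S100a8 and Hbb-bs overlap between the drugs, with oxaliplatin library 1 and cisplatin library 3 the lowest of their groups.

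Fam150b, listed in RefSeq as Alkal2 (chr12:30884324-30893856), encodes a secreted ligand that activates the receptor tyrosine kinases ALK and LTK. Its level was 15.5, 13.9 and 14.7 CPM after cisplatin and 9.34, 10.2 and 9.91 CPM after oxaliplatin. The groups stood well apart with little spread within either, and the log2 fold change was 0.58 (SE 0.07, 95% interval 0.42 to 0.74, adjusted p = 0.0748 by edgeR). Vehicle libraries were at 8.38, 8.46 and 8.75 CPM, close to the oxaliplatin libraries at 8.73, 9.49 and 9.31 CPM on the same scale and below the cisplatin libraries at 14.4, 13 and 13.8 CPM. It was the one gene called by DESeq2 (adjusted p = 5.36e-05), without a count filter (0.0042), with robust empirical Bayes (0.0444) and with all 9 libraries (0.0468). Its receptors differed little, with a log2 fold change of -0.11 for Alk and -0.13 for Ltk.

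Bdnf (chr2:109674700-109727007) encodes brain-derived neurotrophic factor, made by a part of the sensory neurons. Its level was 52.0, 53.4 and 59.6 CPM after cisplatin and 42.8, 42.4 and 41.0 CPM after oxaliplatin. All cisplatin libraries were higher, with a log2 fold change of 0.39 (SE 0.06, adjusted p = 0.168 by edgeR and 0.000207 by DESeq2). Vehicle libraries ranged from 39.3 to 42.1 CPM. Of the peptidergic nociceptor markers and neuropeptides, 15 were tested, 2 were higher and 0 lower at an unadjusted p under 0.05, and their median log2 fold change was -0.03 (4 higher without cisplatin library 3 and 2 lower without cisplatin library 1).

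The circadian clock is a transcriptional loop in which CLOCK or NPAS2 with BMAL1 (gene Arntl) activate genes through E-box motifs. Among the activated genes are repressors of the loop (Per, Cry, Nr1d1, Nr1d2) and the PAR bZIP factors Dbp, Tef and Hlf, which act through D-box motifs. Promoter sequence is shown for clock genes that were lower after cisplatin and that hold such a motif close to the transcription start. The sequences are RefSeq's (GRCm38.p6), written 5′ to 3′ on the strand of the gene, with the motif in capitals. They are the Per3 stretch at chr4:151044791-151044895 on the minus strand, and Tef stretches from a pair of annotated starts at chr15:81802521-81802576 and chr15:81811251-81811306 on the plus strand.

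Per3 D-boxes: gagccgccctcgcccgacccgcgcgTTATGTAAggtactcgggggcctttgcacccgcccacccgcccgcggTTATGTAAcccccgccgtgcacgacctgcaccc
Tef first start E-box: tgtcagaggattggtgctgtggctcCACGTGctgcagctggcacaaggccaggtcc
Tef second start E-box: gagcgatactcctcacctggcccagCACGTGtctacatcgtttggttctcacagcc

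The E-box was searched as CACGTG and the D-box as TTANGTAA, on both strands, from 250 bases before to 50 after each start. Of the 22 listed clock genes, 18 had such windows, 5 of them held an E-box (Ciart, Bhlhe41, Cry1, Per1 and Tef) and 2 a D-box (Per3 and Rorb). Of all 32851 windows, 7.15% held the E-box and 2.32% the D-box. Those are shares of windows, whereas the clock matches are counted by gene, and the 18 genes had 24 windows. Ciart and Rorb were not among the tested genes. These letters were not found in the windows of Dbp, Nr1d1 and Nr1d2. A match describes the sequence only.

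Of the clock list 20 genes were tested, and 4 (20%) were higher and 6 (30%) lower after cisplatin at an unadjusted p under 0.05. Over all tested genes these shares were 5.28% and 2.52%. Groups without overlap were found for 3 higher and 6 lower members, beside 7.93% and 6.4% of all tested genes. The median log2 fold change of the list was -0.09, with members on both sides of 0. The genes named from here to the end of the clock results, Nr1d2 apart, were chosen after their values were seen.

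The D-box factor Dbp stood at 6.66, 8.78 and 7.84 CPM after cisplatin and 12.6, 21.7 and 30.8 CPM after oxaliplatin. Every oxaliplatin library was higher, with a wide spread among them, and the log2 fold change was -1.48 (SE 0.27, adjusted p = 0.305 by edgeR). Vehicle libraries were at 7.11, 7.22 and 7.30 CPM, in the range of the cisplatin libraries. Without oxaliplatin library 1 Dbp was called (log2 fold change -1.75, adjusted p = 0.019), the one call made in any fit that left out a library, and without oxaliplatin library 3 it had -1.14 and an adjusted p of 0.775. DESeq2 called it too (adjusted p = 0.0459).

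Tef, its relative with the E-box windows, stood at 114.9, 114.5 and 115.1 CPM after cisplatin and 128.0, 138.0 and 146.6 CPM after oxaliplatin, a log2 fold change of -0.26 (SE 0.05, adjusted p = 0.344 by edgeR). Per3, with the D-box pair, stood at 12.5, 13.7 and 13.1 CPM against 17.6, 22.3 and 29.1 CPM, a log2 fold change of -0.81 (SE 0.15, adjusted p = 0.306). In Dbp, Tef and Per3 alike, oxaliplatin library 1 was the lowest and library 3 the highest of the oxaliplatin libraries, while the cisplatin libraries lay close together.

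The nuclear receptors Nr1d1 and Nr1d2 (REV-ERB alpha and beta) repress Arntl. Nr1d2 (chr14:18204054-18239127) stood at 48.5, 51.4 and 56.2 CPM after cisplatin and 65.0, 72.1 and 75.9 CPM after oxaliplatin (log2 fold change -0.45, SE 0.07, adjusted p = 0.174). Nr1d1 stood at 2.66, 6.21 and 5.94 CPM against 9.55, 10.9 and 17.3 CPM (-1.33, SE 0.29, adjusted p = 0.364). For Nr1d2 the vehicle libraries (62.0 to 74.2 CPM) lay with the oxaliplatin libraries (60.7 to 71.3 CPM on that scale), whereas for Nr1d1 they (5.19 to 8.49 CPM) overlapped the cisplatin libraries (2.48 to 5.80 CPM) and lay below the oxaliplatin libraries (8.93 to 16.3 CPM).

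The activators differed the other way. Arntl stood at 12.9, 10.1 and 9.77 CPM after cisplatin and 9.05, 7.44 and 5.41 CPM after oxaliplatin (log2 fold change 0.57, SE 0.17, adjusted p = 0.506). Npas2 stood at 3.81, 3.79 and 3.69 CPM against 2.95, 2.36 and 2.41 CPM (0.55, SE 0.12, adjusted p = 0.394), and Clock had a log2 fold change of 0.17 (SE 0.04, adjusted p = 0.404). All 3 were higher in every cisplatin library. Over the fits that left out 1 library, 3 or 4 clock genes were higher and 6 to 8 lower at an unadjusted p under 0.05. The hour of dissection is not in the labels, and its part in these values was not tested.

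**Figure D4:**
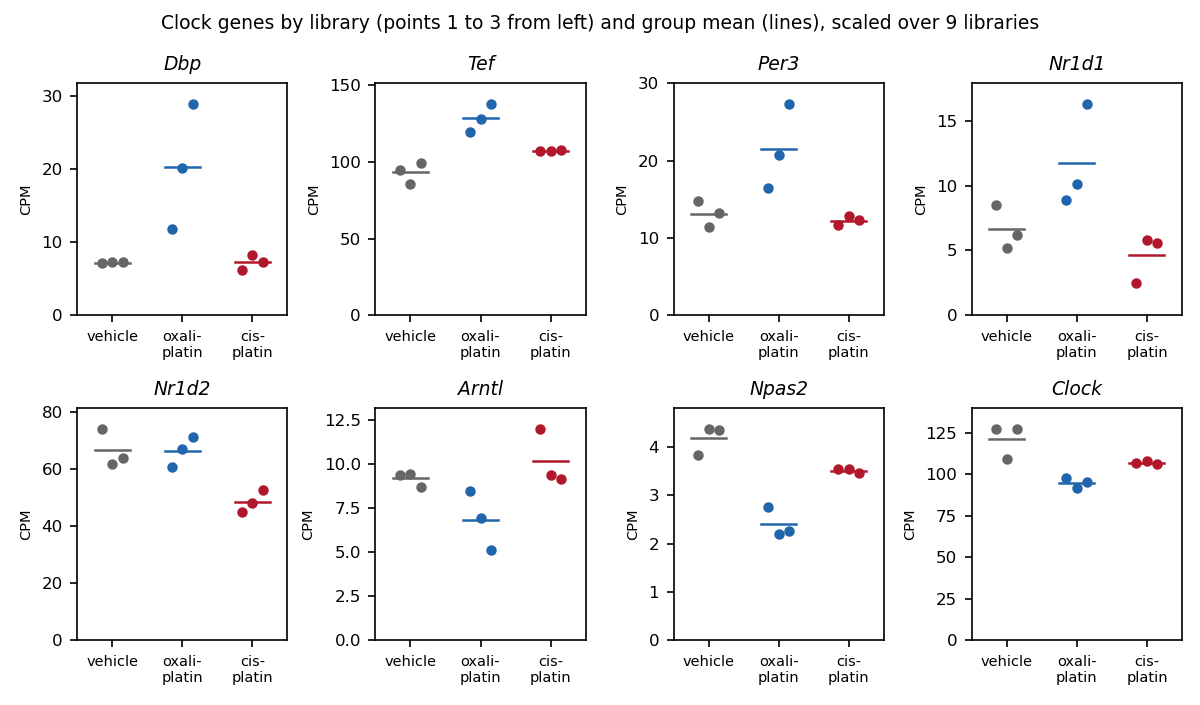
Levels (CPM, linear axes from 0) of 8 clock genes in the 3 libraries of each group, scaled over 9 libraries, with lines at the group means. Dbp, Tef and Per3 are highest after oxaliplatin, with library 1 the lowest of the oxaliplatin libraries and library 3 the highest, and the group means of Arntl and Npas2 are lowest there.

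Both mitochondrial ribosomal RNAs had higher levels in every cisplatin library, and neither passed the adjusted threshold by edgeR. The large ribosomal RNA mt-Rnr2 (chrM:1094-2675) stood at 39486, 34878 and 42150 CPM after cisplatin and 20185, 25473 and 23752 CPM after oxaliplatin (log2 fold change 0.75, SE 0.11, adjusted p = 0.159 by edgeR and 9.88e-14 by DESeq2). The small one, mt-Rnr1, stood at 2395, 2305 and 6051 CPM against 1266, 1690 and 1512 CPM, and its log2 fold change was 1.27 (SE 0.33), or 0.66 without cisplatin library 3. The vehicle libraries held mt-Rnr2 at 20531, 90985 and 22609 CPM, so vehicle library 2 alone exceeded all drug libraries. The library kit was for total RNA, in which ribosomal RNA is removed before sequencing to a degree that can differ by library, and the part of that step was not tested.

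Of 13 mitochondrially encoded protein genes 7 were tested, 5 were higher after cisplatin at an unadjusted p under 0.05 and 0 lower, with a median log2 fold change of 0.27. For mt-Nd1, a complex I subunit, the levels were 1295, 1190 and 1171 CPM after cisplatin and 995, 985 and 1052 CPM after oxaliplatin (log2 fold change 0.27, SE 0.06, adjusted p = 0.364). Removing each library's trend with gene length and GC content left 3 of them higher at that p, with a median of 0.12. The 71 tested nuclear genes of the respiratory chain did not share this, with 0 higher and 2 lower at that p and a median of -0.04 (12 lower without oxaliplatin library 1).

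RNA-binding proteins of splicing were listed after 2 of them, Hnrnpa2b1 and Hnrnph1, appeared among the genes of smallest p, so the lists are no separate evidence. Hnrnpa2b1 (chr6:51460932-51469894) stood at 123.2, 117.8 and 117.0 CPM after cisplatin and 97.3, 100.9 and 93.5 CPM after oxaliplatin (log2 fold change 0.30, SE 0.05, adjusted p = 0.174). Hnrnph1 (chr11:50376990-50386528) stood at 113.9, 111.4 and 108.8 CPM against 94.6, 94.5 and 91.8 CPM (0.25, SE 0.04, adjusted p = 0.198). Of 20 hnRNP genes, 4 were higher at an unadjusted p under 0.05 and 0 lower (median 0.07), and of 11 SR splicing factors 5 were higher and 0 lower (median 0.09). Without oxaliplatin library 1, 8 hnRNP genes were higher. In vehicle libraries Hnrnpa2b1 was at 138.0 to 173.9 CPM and Hnrnph1 at 118.3 to 126.2 CPM, above both drugs on that scale.

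Of 11 tested long non-coding RNAs retained in the nucleus, 8 were higher after cisplatin at an unadjusted p under 0.05 and 0 lower, and none passed the adjusted threshold by edgeR. Their median was 0.19, 3 had a negative log2 fold change, and the summed level overlapped between the drugs (14784 to 16344 CPM after cisplatin and 14687 to 17220 CPM after oxaliplatin). Malat1 stood at 3871, 3833 and 3563 CPM after cisplatin and 3189, 3242 and 3224 CPM after oxaliplatin (log2 fold change 0.22, SE 0.06, adjusted p = 0.428). The number higher was 5 without cisplatin library 1, cisplatin library 2 or oxaliplatin library 3. Meg3 had a log2 fold change of 0.45 (SE 0.10) and Miat 0.29 (SE 0.07). Their vehicle levels were higher than in either drug group, 6816 to 8148 CPM for Malat1.

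Naa50, a subunit of a protein N-terminal acetyltransferase, stood at 63.3, 63.1 and 63.8 CPM after cisplatin and 52.6, 48.4 and 49.4 CPM after oxaliplatin, a log2 fold change of 0.34 (SE 0.05, adjusted p = 0.118). Vehicle libraries were above both, at 78.8 to 98.4 CPM. The other genes of smallest p, Sh3bgrl, Cav2 (caveolin 2), Banp and Gas7, had log2 fold changes of 0.40, 0.35, 0.50 and 0.28, and their adjusted p ran from 0.174 to 0.273.

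Of 27 genes of myelinating Schwann cells 26 were tested, 8 were higher after cisplatin at an unadjusted p under 0.05, 0 were lower, and the median log2 fold change was 0.13. Beside them, of 15 spinal cord and oligodendrocyte markers 9 were tested, 8 had a positive log2 fold change, 2 were higher and 0 lower, with a median of 0.19. Their summed level was 418 to 439 CPM after cisplatin and 393 to 420 CPM after oxaliplatin, and their part in the result was not tested. Aspa, an enzyme of myelin-forming cells, stood at 73.0, 64.3 and 59.2 CPM against 54.6, 56.4 and 52.5 CPM (0.26, SE 0.07, adjusted p = 0.456). Fa2h, which makes the hydroxylated lipids of myelin, stood at 24.4, 25.6 and 21.5 CPM after cisplatin and 18.7, 17.5 and 17.2 CPM after oxaliplatin (log2 fold change 0.42, SE 0.07, adjusted p = 0.282 by edgeR and 0.00452 by DESeq2).

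The number of such genes varied with the libraries used. It was 4 without cisplatin library 1, the library with the highest summed level of the list (9033 CPM), and 17 without cisplatin library 3, the cisplatin library with the lowest (7292 CPM). Fabp7, a satellite glia fatty acid carrier, stood at 434.8, 402.7 and 407.1 CPM after cisplatin and 325.3, 349.9 and 286.4 CPM after oxaliplatin (log2 fold change 0.37, SE 0.07, adjusted p = 0.306). The 22 satellite glia markers as a whole had 2 higher, 1 lower and a median of -0.04.

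Of 30 interferon-stimulated genes 29 were tested, 5 were lower after cisplatin at an unadjusted p under 0.05 and 0 were higher, with a median of -0.19. Mx1, an antiviral GTPase, stood at 0.991, 1.61 and 1.36 CPM after cisplatin and 3.46, 1.80 and 1.86 CPM after oxaliplatin (log2 fold change -0.83, SE 0.29, adjusted p = 0.567). Ifit3 stood at 10.8, 10.5 and 9.77 CPM against 20.6, 12.8 and 11.7 CPM (-0.54, SE 0.19, adjusted p = 0.569). In both genes oxaliplatin library 1 was the highest. Without that library 1 gene was lower, 1 was higher, and the median was -0.09. Without cisplatin library 3 the number lower was 3, and without oxaliplatin library 2 or 3 it was 9 or 12.

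Oxaliplatin library 1 stood apart in another class. Of 97 tested genes of small structural RNAs (small nuclear, small nucleolar and related RNAs), 33 (34%) were more than 2-fold higher in that library than in any other, against 0 in each of the other 5 libraries. Rny1, a Y RNA, stood at 85.5 CPM there, and between 10.1 and 13.5 CPM in the other 5 libraries. Such genes gave 21 of the 434 genes that were lower after cisplatin at an unadjusted p under 0.05. The number was 5 without oxaliplatin library 1, 4 to 8 without 1 of the cisplatin libraries, and 38 and 35 without oxaliplatin library 2 or 3. In cisplatin library 3, mmu-mir-6236 reached 1029 CPM against 48.6 to 90.5 CPM in the other 5. Rny1 (log2 fold change -1.57) and mmu-mir-6236 (2.52) are among the 51 genes that differed at least 2-fold at an unadjusted p under 0.05, and without the library that stands apart they had 0.05 and 0.12.

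Genes of excitability, the usual candidates for pain, differed little. Of 13 tested sodium channels and beta subunits, all had a negative log2 fold change, 1 was lower at an unadjusted p under 0.05, and the median was -0.10. Scn9a (Nav1.7) stood at 687, 703 and 765 CPM after cisplatin and 858, 686 and 707 CPM after oxaliplatin, with a log2 fold change of -0.06 (95% interval -0.26 to 0.13). Scn10a (Nav1.8) had -0.15 (-0.36 to 0.06) and Scn11a (Nav1.9) -0.24 (-0.48 to 0.00). For all 3, oxaliplatin library 1 was the highest and the groups overlapped, and without it the median of the 13 genes was -0.05. Without cisplatin library 3 or oxaliplatin library 2, 4 of the 13 were lower at that p.

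Of 35 potassium channel genes 1 was higher and 1 lower at that p (median -0.03), of 21 HCN and calcium channel genes 0 and 0 (median -0.09), and of 27 TRP, Piezo, ASIC and P2X channel genes 0 and 3 (median -0.06). Of the potassium channels 5 were lower without cisplatin library 3. Of the HCN and calcium channels 6 were lower without oxaliplatin library 2 (median -0.15) and 4 without cisplatin library 3. Of the TRP, Piezo, ASIC and P2X channels 5 were lower without either of those libraries and 1 without oxaliplatin library 3. The heat and irritant receptors Trpv1 and Trpa1 had log2 fold changes of 0.02 (95% interval -0.15 to 0.19) and 0.04 (-0.10 to 0.18). Trpm8, the cold receptor, stood at 32.1, 31.5 and 38.2 CPM after cisplatin and 42.4, 32.3 and 33.1 CPM after oxaliplatin, with a log2 fold change of -0.08 (-0.33 to 0.17). The neuropeptide genes Calca and Tac1 had 0.00 (-0.15 to 0.15) and 0.15 (-0.02 to 0.32).

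Neuronal genes of small p in these lists had small differences. Il31ra, an itch cytokine receptor, stood at 22.8, 21.3 and 20.6 CPM after cisplatin and 28.5, 23.7 and 25.8 CPM after oxaliplatin (log2 fold change -0.27, SE 0.08, adjusted p = 0.472). The channel genes Kcns1 and Scn3b had -0.14 and -0.10, with adjusted p of 0.561 and 0.62, and in Il31ra, Kcns1 and Scn3b every cisplatin library was below every oxaliplatin library. Maf, a transcription factor of touch neurons, stood at 84.2, 71.5 and 75.1 CPM against 66.9, 61.2 and 59.3 CPM, all cisplatin libraries higher (0.30, SE 0.07, adjusted p = 0.397). Of 24 tested identity factors 2 were higher and 0 lower at an unadjusted p under 0.05, with a median of 0.00.

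Among markers of nerve injury, Atf3, a stress-induced transcription factor, stood at 5.82, 6.39 and 6.79 CPM after cisplatin and 8.34, 10.9 and 7.36 CPM after oxaliplatin. The groups did not overlap, and the log2 fold change was -0.48 (SE 0.14, adjusted p = 0.493 by edgeR). Vehicle libraries were at 5.25 to 6.22 CPM, overlapping the cisplatin libraries (5.42 to 6.36 CPM on that scale), with 2 of the 3 below the lowest of them. Gal, the neuropeptide galanin, overlapped between the groups (0.28, 95% interval -0.07 to 0.63), as did Sarm1, the executor of axon degeneration (-0.03, -0.20 to 0.13). Of 28 tested injury genes 1 was higher and 1 lower at an unadjusted p under 0.05, with a median of 0.00, and 4 were higher without cisplatin library 3.

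The lists of platinum route genes, metallothionein and glutathione genes, p53 targets and repair genes had median log2 fold changes between -0.04 and 0.01. Single members differed more or had wide intervals. Cdkn1a (chr17:29090976-29100727), the cell cycle inhibitor p21 and a p53 target, stood at 24.4, 24.7 and 24.2 CPM after cisplatin and 20.6, 20.3 and 19.5 CPM after oxaliplatin. The libraries of each drug agreed closely and did not overlap, with a log2 fold change of 0.28 (SE 0.05, 95% interval 0.16 to 0.40, adjusted p = 0.305). The vehicle libraries (24.3 to 30.1 CPM) were above both groups on the 9-library scale. Mdm2, another p53 target, had 0.00 (-0.12 to 0.12), and of 35 tested p53 targets 2 were higher and 2 lower at an unadjusted p under 0.05 (1 to 3 higher and 0 to 3 lower on leaving out each library).

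Xpa, a damage-recognition factor of nucleotide excision repair, stood at 9.11, 9.53 and 8.41 CPM after cisplatin and 11.8, 11.4 and 11.4 CPM after oxaliplatin (log2 fold change -0.35, SE 0.07, adjusted p = 0.344). Vehicle libraries (7.33 to 8.09 CPM) were nearer to the cisplatin libraries (7.88 to 8.91 CPM) than to the oxaliplatin libraries (10.6 to 11.0 CPM). Ercc1, a subunit of the nuclease of that pathway, had -0.03 (-0.16 to 0.09). Of 38 repair genes 0 were higher and 2 lower at an unadjusted p under 0.05 (0 to 1 higher and 1 to 4 lower on leaving out each library).

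Among transporters that carry platinum drugs, the copper importer Slc31a1 (CTR1) had a log2 fold change of 0.01 (95% interval -0.09 to 0.12) and the copper exporter Atp7a -0.14 (-0.33 to 0.05). The exporter Atp7b stood at 1.39, 1.17 and 1.48 CPM after cisplatin and 1.03, 0.846 and 0.888 CPM after oxaliplatin, without overlap (0.54, 0.12 to 0.96, adjusted p = 0.567). The organic cation transporters Slc22a2 (OCT2), Slc22a3 and Slc22a4 had -0.20 (-0.82 to 0.42), 0.15 (-0.13 to 0.44) and 0.08 (-0.19 to 0.36). The efflux transporter Slc47a1 (MATE1) had -0.31 (-0.63 to 0.01), and the channel subunit Lrrc8a 0.01 (-0.12 to 0.15). The metal-binding metallothioneins Mt1 and Mt2 had 0.14 (-0.04 to 0.33) and -0.08 (-0.35 to 0.18). Of 25 tested copper transporter and platinum route genes 1 was higher and 0 lower at an unadjusted p under 0.05, with 5 lower without cisplatin library 1. Of 25 tested metallothionein and glutathione genes 0 were higher and 1 lower, with 4 lower without cisplatin library 1 or oxaliplatin library 1.

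**Figure D5:**
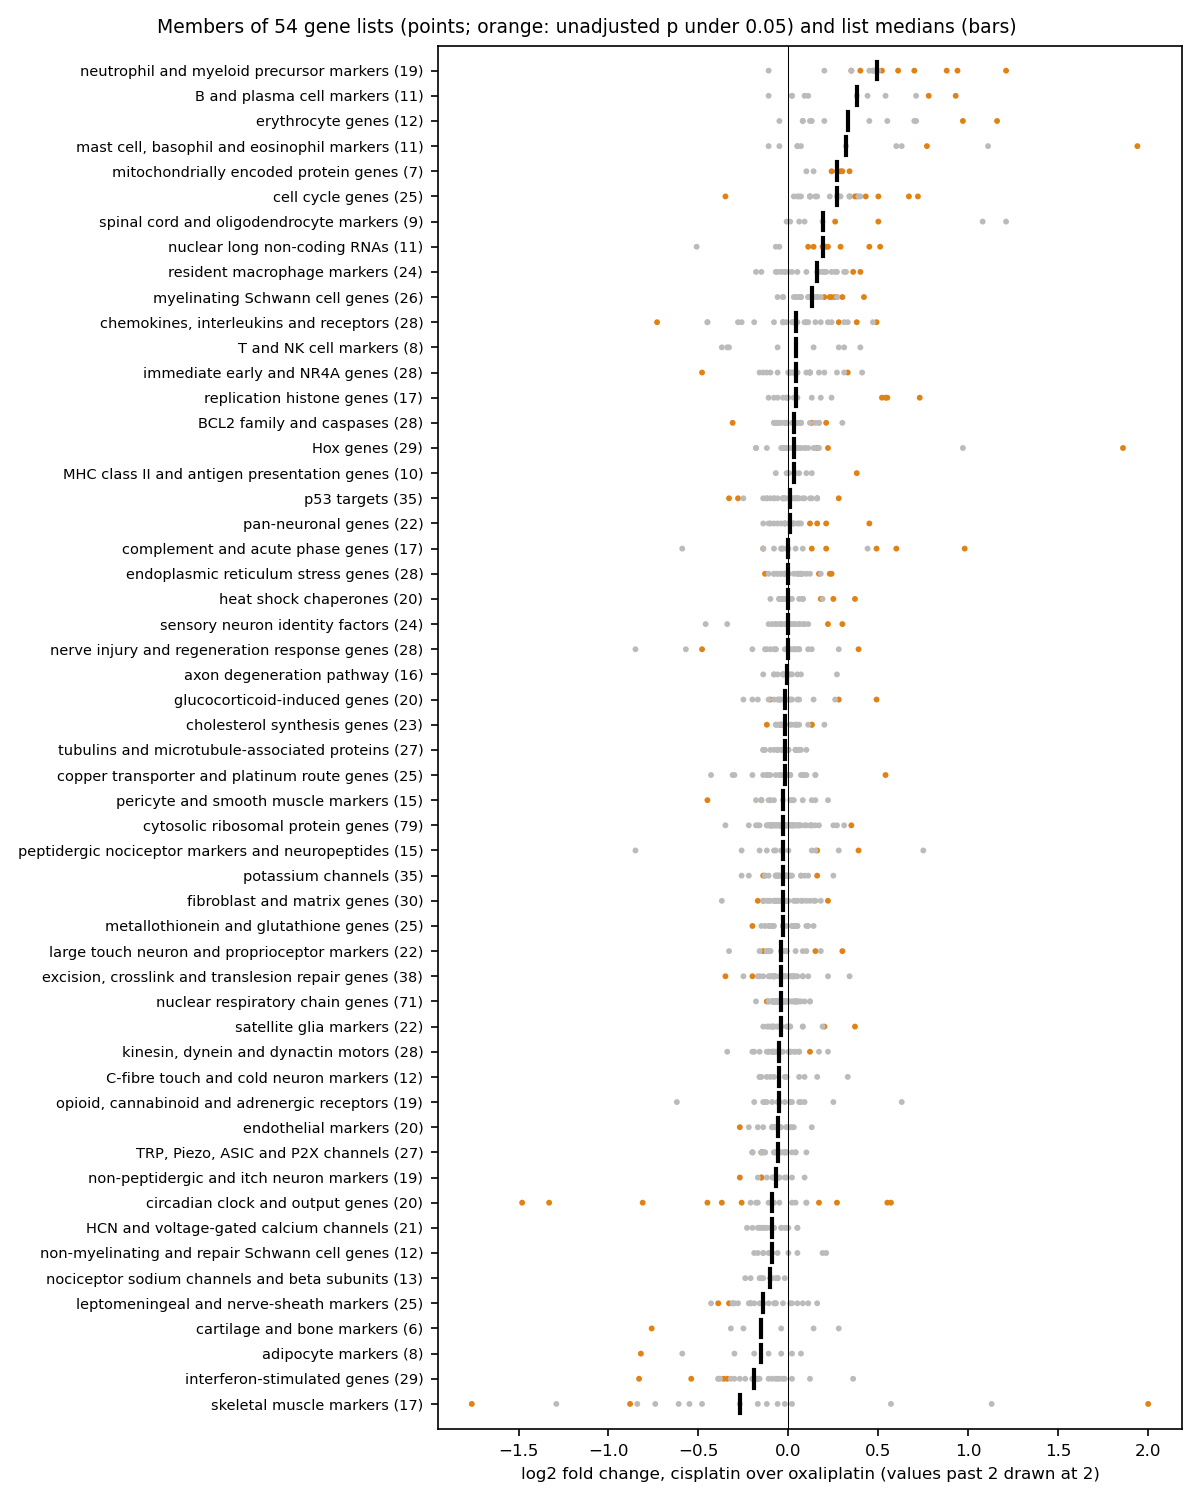
Log2 fold changes of cisplatin over oxaliplatin for the tested members of 54 gene lists, with the number tested in brackets, orange points at an unadjusted p under 0.05 and black bars at the list medians; values past 2 are drawn at 2. The medians run from -0.27 (skeletal muscle markers) to 0.49 (neutrophil and myeloid precursor markers), and those of neuronal channel lists lie between -0.10 and -0.03.

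Tissue beside the ganglion was present to a varying degree. Skeletal muscle markers summed to between 107 and 206 CPM after cisplatin and between 109 and 223 CPM after oxaliplatin, and of 17 tested 1 was higher and 2 were lower at an unadjusted p under 0.05. The number lower was 7 without oxaliplatin library 3 and 4 without cisplatin library 1. Myh1, a fast muscle myosin, reached 8.15 CPM in cisplatin library 1 and stayed under 1 CPM in the other 5, and without that library its log2 fold change of 2.59 became -0.04. Markers of the leptomeninges and nerve sheath summed to 688 to 1056 CPM after cisplatin and 786 to 996 CPM after oxaliplatin, with 0 higher and 2 lower. Without cisplatin library 1, which had the highest sum, 13 of the 25 were lower (median -0.30), and without oxaliplatin library 1, which had the lowest oxaliplatin sum, 6 were (median -0.26). The part of such tissue in the values above was not tested.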

How the data were processed

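RNA of pooled ganglia was sequenced as stranded total RNA (single-end reads of 75 nucleotides). The deposited files hold counts of reads per gene symbol, not normalized by the authors. Per the submitters' processing notes, STAR, SAMtools and HTSeq were used with the mouse build mm10 (GRCm38). For the versions, annotation and strand setting of the counting, nothing was given in the sources used here. Overlapping and antisense genes therefore cannot be told apart, and genes with near-identical copies, such as globins and histones, are uncertain. The 5 classes of reads assigned to no gene were left out. Of 38926 symbols, 91.8% matched GENCODE M21, which gave positions.

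The 3 cisplatin and 3 oxaliplatin libraries were fitted with edgeR 4.0.16 (R 4.3.3): TMM scaling, the filterByExpr filter, 1 term per drug and the quasi-likelihood F test, adjusted by Benjamini-Hochberg over 17208 genes at 0.05. Log2 fold changes are cisplatin over oxaliplatin. The labels give no batch. Levels are CPM on TMM-scaled totals, and vehicle levels come from a scaling of all 9 libraries. The vehicle libraries enter no test except the alternative fit of all 9 libraries. Exact intervals and floors cover counting error only. The intervals come from reads summed over the libraries of each drug and leave out the spread between pools. Reads carry no molecular identifiers, so repeated copies of a molecule could not be told apart. Library properties were compared by two-sided exact permutation tests. The procedure was also run on simulated counts with known changes, in which no library stood apart. That run is no support for the results given here.

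Gene lists were described by counts and medians, with no set test. The members and lists were chosen with earlier results of these data known. Genes were named by rule: the 15 smallest p-values, since no gene was called, the member of smallest p in each list, and 25 genes of pain, injury and drug handling, of which Abcc2 had too few reads to be tested. Some genes that the rule names are not reported here. Any other named gene, and the platelet, hnRNP and SR lists, were chosen after values were seen. The main fit did not pair libraries by replicate number. Alternatives were median-ratio factors, library totals, other count filters, limma-voom 3.58.1, DESeq2 1.42.0, robust empirical Bayes, all 9 libraries, a replicate block, an adjusted p of 0.1, removal of mitochondrial and small RNAs, removal of GC and length trends (mgcv 1.9.3, 94.2% of tested genes) and leaving out each library.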

Additional observations from a re-analysis of the deposited data

How the results depend on the processing

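Against 0 genes higher and 0 lower after cisplatin by edgeR, 16 and 6 were called without a count filter and 24 and 7 by DESeq2, whose adjusted p was not given for 6006 genes. Robust empirical Bayes called 3 higher, an adjusted p under 0.1 called 3, all 9 libraries called 2 and removal of length and GC trends called 2, with 0 lower in each. Median-ratio factors, library totals, a minimum of 1 CPM in 3 libraries, limma-voom and removal of mitochondrial, small and structural RNAs called 0 in both directions. Leaving out each library gave 0 higher, and 0 to 1 lower (Dbp, without oxaliplatin library 1). At an unadjusted p under 0.05, DESeq2 gave 585 higher and 242 lower against 908 and 434, library totals gave 664 lower and trend removal gave 665 lower. Leaving out each library gave 634 to 1199 higher and 275 to 643 lower. Without oxaliplatin library 3 there were 275 lower, and without cisplatin library 2 there were 278. The cause of these differences was not tested.

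Same-numbered libraries did not deviate together (correlations of -0.152, 0.019 and 0.001), beside -0.236 to 0.216 for libraries of unlike number. Deviations from a mean of 3 libraries constrain each other, and whether same-numbered pools were handled together was not tested. With a replicate block 0 genes were called in both directions, and 725 were higher and 284 lower at an unadjusted p under 0.05.

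Some genes changed sign, most of them near 0. Myh1 (2.59) and Rny1 (-1.57), each with 1 library that stood apart, did so when that library was left out. Calca gave 0 with the 1 CPM minimum, with limma-voom, with the replicate block and with mitochondrial and small RNAs removed, 0.01 after trend removal, and -0.04 to 0.06 on leaving out each library. Mdm2 gave 0 with the 1 CPM minimum and with mitochondrial and small RNAs removed. Slc31a1 gave -0.02 after trend removal. On leaving out each library, Myh1 ran from -0.04 to 3.13, Rny1 from -2.02 to 0.05, Hbb-bs from -0.35 to 0.23, Scn9a from -0.12 to 0.04, Trpv1 from -0.07 to 0.07, Trpm8 from -0.18 to 0.05 and Sarm1 from -0.11 to 0.02. Mdm2 ran from -0.05 to 0.03, Slc31a1 from -0.01 to 0.05, Slc22a2 from -0.42 to 0.07, Slc22a4 from -0.01 to 0.15, Lrrc8a from -0.02 to 0.06 and Ercc1 from -0.06 to 0. The mitochondrial rRNA difference stayed between 1.51 and 1.97 percentage points on leaving out each library. With 3 pools per drug, an exact test of a single value cannot go below 0.1, and genes under 3.23 CPM have wide intervals.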

Other observations

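Over all tested genes, 5.28% were higher after cisplatin at an unadjusted p under 0.05 and 2.52% lower. Of 20 heat shock chaperones 3 (15%) were higher at that p and 0 lower (median 0.00), with Cryab, a small chaperone, at 107.0, 101.6 and 90.6 CPM against 85.3, 84.4 and 82.0 CPM (log2 fold change 0.25, SE 0.06, adjusted p = 0.404). Of 28 endoplasmic reticulum stress genes 3 (10.7%) were higher and 1 lower (median 0.00, and 1 to 6 higher on leaving out each library), with Dnajb9, a chaperone of the reticulum, at 18.6, 19.6 and 19.5 CPM against 16.7, 17.0 and 15.6 CPM (0.23, SE 0.06, adjusted p = 0.428). Neither gene overlapped between the drugs.

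Of 17 tested complement and acute phase genes 5 (29.4%) were higher and 1 lower (median 0.00), and 2 to 4 were higher on leaving out each library. C4a, 1 of the 5, would not have passed the count filter on the oxaliplatin libraries alone. Lcn2, a siderophore-binding protein that is also on the neutrophil list, stood at 12.3, 10.0 and 9.55 CPM against 5.25, 8.21 and 9.22 CPM (0.49, SE 0.18, adjusted p = 0.587). Of 79 cytosolic ribosomal protein genes 1 was higher and 0 lower (median -0.03, and 4 lower without oxaliplatin library 1), and of 27 tubulin and microtubule genes 0 and 0 (median -0.02). Of 28 motor protein genes 1 was higher and 0 lower (median -0.05). With library totals 8 of them were lower, as were 8 without cisplatin library 3, 4 without oxaliplatin library 2 and 4 after removal of length and GC trends.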
